A study of Homo sapiens with 4 samples.

Results

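The mitochondrial respiratory chain and ATP synthase genes were examined for differences in exon inclusion between wild-type HEK293T clones and clones that lack RBFOX2, an RNA-binding splicing regulator that recognises the element GCATG. The genes were chosen by symbol alone, taking every listed symbol that begins with NDUF, SDHA to SDHD, UQCR, COX followed by a digit, or ATP5. Pseudogenes were left out, which removed 4 events of SDHAP1 and SDHAP2. This gave 243 cassette exon events, covering 207 different exons of 77 gene symbols, out of 31408 events, 27483 exons and 9157 symbols in the authors' deposited table. In such an event an exon is either spliced into the message between its neighbours or skipped, and 1 exon has several events when it is paired with different flanking exons.

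RNA was sequenced from 4 libraries of HEK293T, a human embryonic kidney cell line, as stranded total RNA after removal of ribosomal RNA. The groups were 2 clones with the genotype WT and 2 with the genotype RBFOX2 KO. Transfection with the Cas9 plasmid PX459 and the plasmid pgRGFP, whose guide RNAs flank RBFOX2, is stated for all 4, so the wild-type clones went through the same procedure. Each library comes from 1 clone grown from a single sorted cell, so differences between clones enter the comparison. The table holds exon junction data and no expression levels, so neither the loss of RBFOX2 nor the identity of the cells was checked here.

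The authors' deposited table compares a first with a second set of libraries, named only by number. No sample label matches these numbers, so directions below are between the sets and not between the genotypes, and the values of single libraries, their depth and their spread were not used. Inclusion is the share of transcripts that contain the exon, scaled from 0 to 1, and each difference was read as the first set minus the second. A positive value thus means higher inclusion in the first set. An event was called at a deposited false discovery rate (FDR) under 0.05, adjusted over all 31408 events, and a difference of 0.1 or more in either direction.

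Complexes I to IV carry electrons from NADH and succinate to oxygen and, all but complex II, pump protons across the inner mitochondrial membrane, and complex V, the ATP synthase, uses that gradient to make ATP. Most of their subunits are encoded in the nucleus and the others in mitochondrial DNA. Dedicated assembly factors, which are not part of the finished enzymes, insert cofactors and join the modules. Among nuclear genes of the ATP synthase, ATP5C1 is known for a short cassette exon near its end whose inclusion responds to RBFOX proteins and differs between muscle and other tissues.

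Few of these exons met both limits of a call. Calls were made for 6 of 243 events in the authors' deposited table, which is 2.47%, beside 5.15% of all events. Inclusion was higher in the first set for 4 of them (1.65%), beside 2.77% of all events, and in the second for 2 (0.823%), beside 2.38%. Counted by exon, 6 of 207 were called (2.9%), beside 5.73% of all exons. A further 8 events (3.29%) passed the FDR with an absolute difference under 0.1, beside 0.968% of all events. Together 14 events passed the FDR whatever their size (5.76%), close to the 6.12% of all events. These 14 lay in 13 genes, and 71 of the 77 genes had no called event.

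Differences of the respiratory chain events were mostly close to 0. Their median absolute difference was 0.012, beside 0.048 in the whole table, and 157 events (64.6%) lay under 0.02, beside 26.7% of all events. For 29 events (11.9%) it was 0.1 or more, beside 31.5%. The sign was positive in 117 events, negative in 123 and 0 in 3. A p-value of exactly 1 was listed for 140 events (57.6%, beside 51.4% of all events), of which 11 still differed by 0.1 or more. Coverage was not used, so a p-value of 1 does not show that inclusion was equal.

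**Figure D1:**
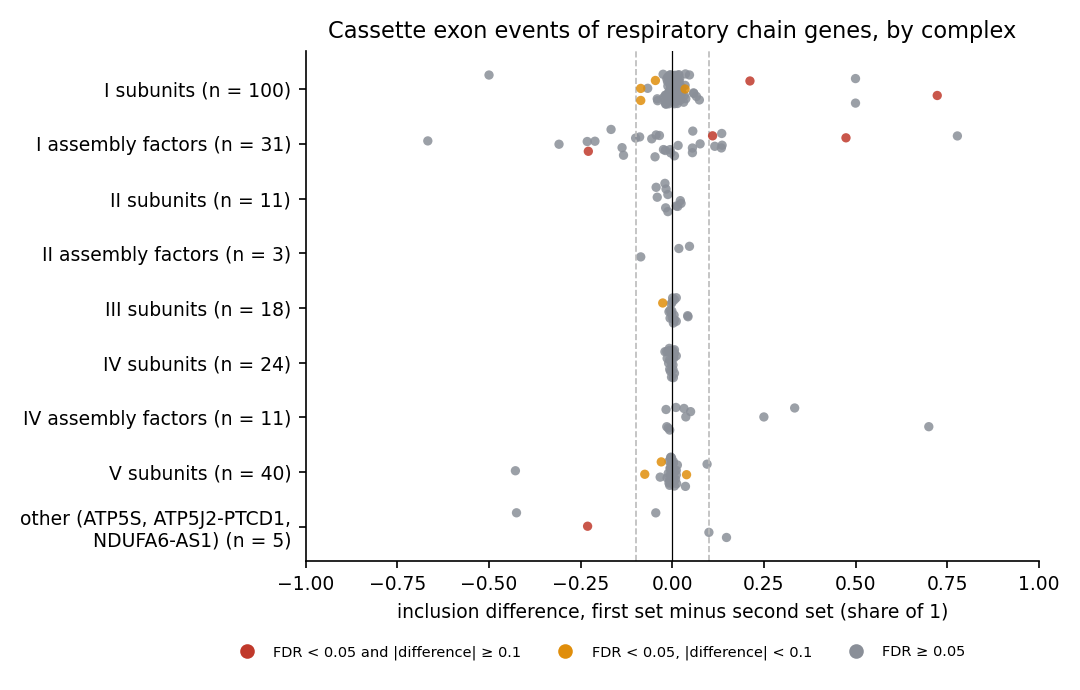
Inclusion difference (first set minus second set, share of 1) of each of the 243 events, by complex and role, with 1 point per event, dashed lines at an absolute difference of 0.1 and vertical scatter only for legibility. Red points are called events, orange points pass the FDR with a smaller difference, and grey points have an FDR of at least 0.05; subunit events crowd around 0 while assembly factor events spread out.

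By role, assembly factors and subunits differed in how far their events spread. The 193 events of 59 subunit genes had a median absolute difference of 0.009, and 6 of them (3.11%) reached 0.1. Among the 45 events of 15 assembly factor genes the median was 0.056, and 19 (42.2%) reached 0.1. NDUFAF6 alone gave 9 of these 19, and without it 10 of 32 events (31.2%) did so, with a median of 0.047. An absolute difference of at most 0.05 was listed for 92.2% of subunit events, 42.2% of assembly factor events and 51.4% of all events. The assembly factors were thus close to the whole table and the subunits well below it, as a description of these events with no test. Only 3 of the 45 assembly factor events and 10 of the 193 subunit events passed the FDR. Coverage was not used, so how precise the other differences are is unknown. Calls numbered 3 among the 45 events of assembly factors and 2 among the 193 of subunits, beside 5.15% of all events in the table. All 8 small differences past the FDR were in subunits, which hold 193 of the 243 respiratory chain events. Such small differences made up 0.968% of all events in the table.

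**Figure D2:**
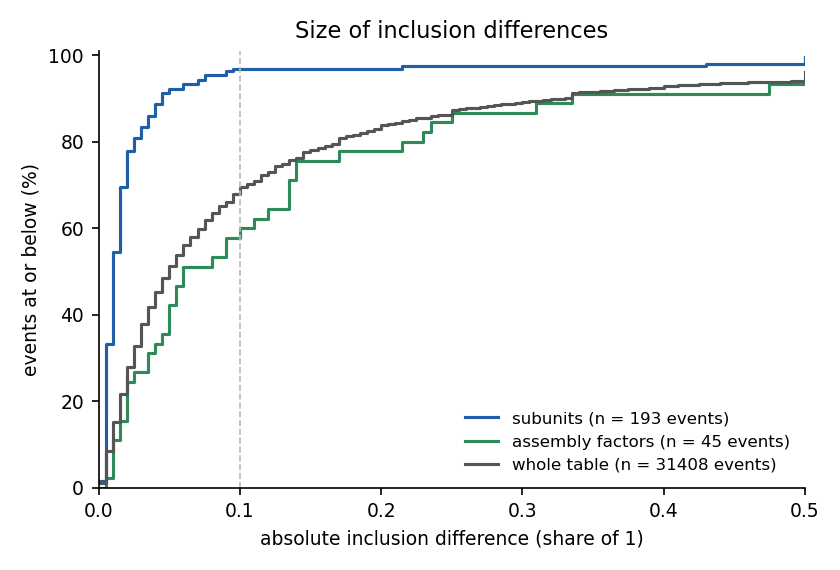
Cumulative share of events (percent) by absolute inclusion difference (share of 1) for subunit genes, assembly factor genes and all events of the table. The subunit curve reaches 92.2% at a difference of 0.05, while the assembly factor curve is at 42.2% and the whole table at 51.4%.

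Complex I, which oxidises NADH, held 5 of the 6 called events among its 132 events in 37 genes. Its 31 events in 7 assembly factor genes included 3 called ones, and their median absolute difference was 0.1. NDUFAF5, an enzyme that modifies a core subunit early in assembly, had a 98-nt exon (chr20:13795064-13795161, + strand, hg19) with -0.229 in the authors' deposited table (p = 2.66e-07, FDR = 2.04e-05). Inclusion was therefore higher in the second set. GENCODE 29 annotates this exon only in transcripts marked for nonsense-mediated decay, the pathway that degrades messages with an early stop. The exon brings a stop codon, in capitals below, at its bases 24 to 26, which shortens the reading frame from 345 to 267 codons.
NDUFAF5: aacaaaagtccagaatgttgaccTAA

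NDUFAF2, a chaperone for a late step of complex I assembly, had a 41-nt coding exon (chr5:60394819-60394859, + strand, hg19), for which the authors' deposited table lists 0.11 (p = 8.4e-07, FDR = 5.57e-05). It is exon 3 of 4, and because its length is no multiple of 3, leaving it out shifts the frame and ends it after 77 codons in place of 169. The other 3 events of this gene had differences between -0.024 and -0.006, all with a p-value of 1. The whole exon is shown because it is the shortest called one.
NDUFAF2: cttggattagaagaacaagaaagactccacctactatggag

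Among the subunits of complex I, 2 events were called. NDUFA3, a small accessory subunit of the membrane arm, had a 94-nt exon with the largest called difference, 0.723 (p = 5.88e-05, FDR = 0.00207 in the authors' deposited table). The same exon, listed with another downstream exon, had 0.035 in the authors' table (p = 2.53e-06, FDR = 0.000142). Both were higher in the first set, and the size depended on the junctions counted. The exon holds a stop codon, and its inclusion gives 72 codons. Skipping gives 84 in the annotated transcript used, and this count was not made separately for each downstream exon.

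Some exons share sequence with exons of other genes. Of the 194 respiratory chain exons matched to a GENCODE sequence, 24 shared a 20-base stretch with another gene. With at least 10 genes 16 did so, and the NDUFA3 exon was the only called one of the 24. Among all 207 respiratory chain exons 6 were called (2.9%), beside 5.73% of all exons. The count of sharing exons over the whole table is not given here. A 117-nt coding exon of COX7A2 shared stretches with 226 genes and had a difference of -0.002. Whether reads from other copies enter these values was not tested.

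NDUFS8, a core subunit that binds iron-sulfur clusters, had a called 58-nt exon (chr11:67799619-67799676, + strand, hg19) with 0.212 in the authors' deposited table (p = 0.000835, FDR = 0.0179). It is exon 2 of 7 and opens with the start codon, in capitals below, so transcripts without it lack the annotated start. With other flanking exons the authors' table gives the same exon differences of 0.011 (p = 1) and -0.002 (p = 0.545), so 1 of its 3 events was called.
NDUFS8: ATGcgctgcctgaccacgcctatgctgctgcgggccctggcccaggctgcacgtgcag

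Smaller differences that passed the FDR were found in 4 complex I subunits. NDUFS4, an accessory subunit whose loss causes Leigh syndrome, had a 172-nt exon (chr5:52900554-52900725, + strand, hg19) with -0.086 in the authors' deposited table (p = 4.06e-08, FDR = 4.03e-06). This exon is annotated only in a nonsense-mediated decay transcript, with 131 codons where skipping gives 175. The membrane arm subunits NDUFB3 and NDUFB5 had, in the authors' table, -0.046 (p = 1.78e-05, FDR = 0.000752) for an 83-nt 5' UTR exon (chr2:201937002-201937084, + strand) and -0.086 (p = 0.00278, FDR = 0.0466) for a 62-nt coding exon (chr3:179334771-179334832, + strand). Skipping the NDUFB5 exon shortens the frame from 189 to 102 codons. All 3 of these exons had higher inclusion in the second set, and the fourth small difference is the 0.035 of NDUFA3 above. The NDUFS4 exon is shown as an example of an exon outside the normal coding sequence.
NDUFS4: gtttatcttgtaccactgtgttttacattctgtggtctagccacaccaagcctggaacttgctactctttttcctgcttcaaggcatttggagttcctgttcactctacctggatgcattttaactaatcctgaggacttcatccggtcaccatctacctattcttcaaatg

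Among complex I events that did not pass the FDR, the lowest p-values belonged to NDUFV3, ATP5SL and NDUFAF6. NDUFV3, a subunit of the NADH-oxidising module, had 0.074 for a 121-nt coding exon (p = 0.00359, FDR = 0.0565 in the authors' deposited table). ATP5SL, now named DMAC2 and an assembly factor of complex I despite its older name, had -0.133 for a 163-nt coding exon in the authors' table (p = 0.0182). NDUFA12, an accessory subunit related to NDUFAF2, had 0.5 for a 111-nt exon of noncoding transcripts in the authors' table, which was not called (p = 0.101).

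NDUFAF6, needed early in complex I assembly, is the third assembly factor with a call and had the most events of the complex I genes, 13 in 10 exons. Its called exon is 119 nt long (chr8:95993083-95993201, + strand, hg19), lies in the 5' UTR of an annotated transcript, and had 0.474 in the authors' deposited table (p = 6.7e-06, FDR = 0.000324). An exon of 115 nt that overlaps it had 0.778 with a p-value of 1. Differences over the 13 events ran from -0.667 to 0.778 with a median absolute value of 0.134. Among its exons that were not called, the authors' table gives a 137-nt 5' UTR exon -0.137 (p = 0.0217) and a 57-nt coding exon -0.211 (p = 0.127).

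**Figure D3:**
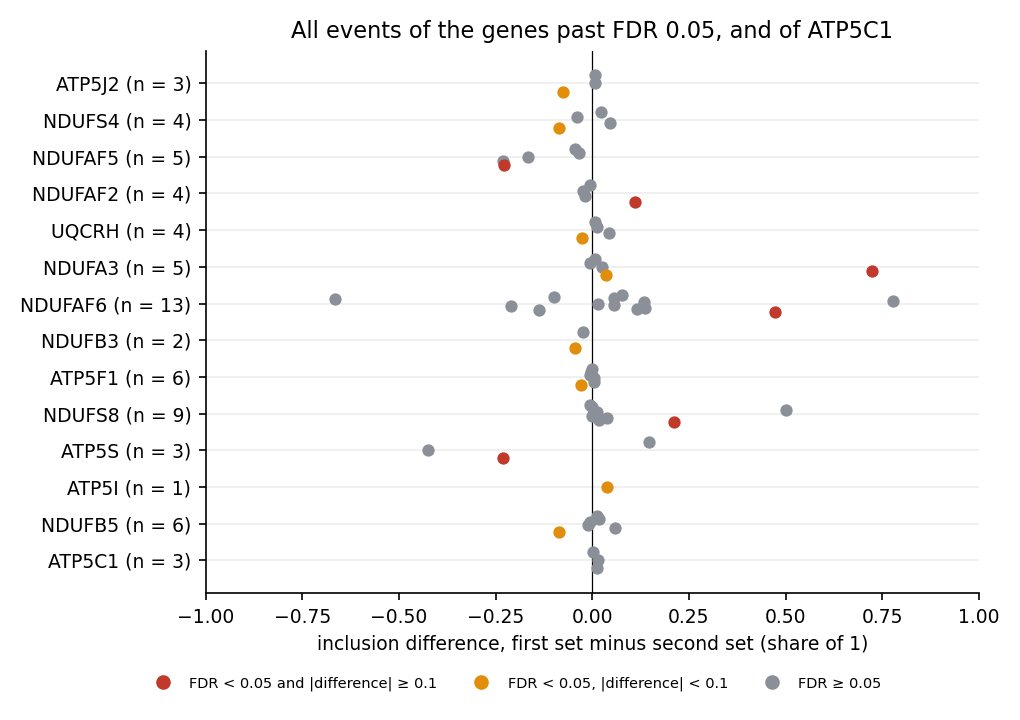
Inclusion difference (first set minus second set, share of 1) of every event of the 13 genes with an event past FDR 0.05 and of ATP5C1, 1 point per event, with the number of events in brackets. ATP5J2 and NDUFAF2 each have 1 event apart from others near 0, NDUFAF6 runs from -0.667 to 0.778, and the 3 ATP5C1 events lie between 0.002 and 0.014.

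Complexes II and III had no called event, and 0 and 2 of their events had an unadjusted p-value under 0.05 by the authors' rMATS test. Complex II, which oxidises succinate, had 14 events in 4 genes with a median absolute difference of 0.019 and none at 0.1 or above. Its lowest p-values in the authors' deposited table belonged to SDHAF2, which helps attach the flavin cofactor (-0.086, p = 0.0974), to the flavoprotein SDHA (0.022, p = 0.111) and to the membrane anchor SDHC (-0.044, p = 0.256). SDHC had the most events, 6, with absolute differences up to 0.044. Complex III, which passes electrons to cytochrome c, had 18 events in 6 genes with a median absolute difference of 0.006, and none reached 0.1.

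UQCRH, the hinge protein that binds cytochrome c1, gave the only event of complex III past the FDR. Its 148-nt exon (chr1:46775569-46775716, + strand, hg19) had -0.026 in the authors' deposited table (p = 1.06e-06, FDR = 6.75e-05). GENCODE 29 lists this exon only in a nonsense-mediated decay transcript, with 102 codons where skipping gives 91. In the authors' table the core protein UQCRC2 had 0.042 for a 138-nt exon (p = 0.015), UQCRB 0.006 (p = 0.0873) and a 43-nt UQCRH exon 0.043 (p = 0.17). UQCR11, a small subunit whose symbol covers 2 gene IDs here, had the most events, 4, all within 0.009 of 0.

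Complex IV, cytochrome c oxidase, had no event past the FDR of the authors' rMATS test among 35 events in 16 genes, and none with an unadjusted p-value under 0.05. The 24 subunit events had a median absolute difference of 0.006, and none reached 0.1. COX7A2 (-0.02, p = 0.189) and COX5A (-0.015, p = 0.222) had the lowest p-values of the subunits in the authors' deposited table. COX5A had 7 events in 3 exons, all within 0.015 of 0. The 11 events of assembly factors had a median of 0.032, and all 3 that reached 0.1 were those of COX11, which delivers copper to the enzyme. A 194-nt COX11 exon had 0.25 with p = 0.442 in the authors' table.

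ATP synthase, complex V, had 1 called event among 44 events in 14 genes, and that gene does not encode a subunit. ATP5S, now named DMAC2L and known as coupling factor B, had a 172-nt coding exon (chr14:50790663-50790834, + strand, hg19) with -0.231 in the authors' deposited table (p = 0.00172, FDR = 0.0321). With another flanking exon the authors' table gives the same exon -0.425 (p = 0.00347, FDR = 0.0552), so both events were higher in the second set. Skipping shortens the frame from 215 to 127 codons. The exon contains GCATG, the element bound by RBFOX proteins, in capitals below.
ATP5S: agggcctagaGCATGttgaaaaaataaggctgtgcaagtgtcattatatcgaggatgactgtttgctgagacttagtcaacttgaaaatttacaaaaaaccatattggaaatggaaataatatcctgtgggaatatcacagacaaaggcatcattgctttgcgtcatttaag

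ATP5J2, now ATP5MF, encodes subunit f of the membrane part and had the lowest p-value of all 243 events. Its 117-nt coding exon had a difference of -0.075 (p = 1.11e-16, FDR = 8.72e-14 in the authors' deposited table). Skipping keeps the reading frame and leaves 55 of 94 codons. None of the 6 called exons has a length divisible by 3, beside 35.3% of all 207 respiratory chain exons.

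Small differences past the FDR were also listed for ATP5F1 and ATP5I. ATP5F1, now ATP5PB, is subunit b of the stalk that holds the enzyme's head still, and its 146-nt coding exon (chr1:111996833-111996978, + strand, hg19) had -0.03 (p = 0.000113, FDR = 0.00351 in the authors' deposited table). The authors' table also lists it with another flanking exon, at -0.004 (p = 1). ATP5I, now ATP5ME, is subunit e, which helps the enzyme form dimers, and its only event, a 55-nt coding exon (chr4:667701-667755, - strand, hg19), had 0.039 in the authors' table (p = 0.00183, FDR = 0.0336). Skipping ends the frame after 46 of 256 codons in ATP5F1 and after 14 of 69 in ATP5I.

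Events of the other ATP synthase subunits had differences near 0. The 10 events of the F1 head had a median absolute difference of 0.0035. ATP5B, the catalytic beta subunit now named ATP5F1B, had 0.011 in the authors' table for a 183-nt exon (p = 0.0161), and ATP5G1, which encodes the rotating c subunit, had 0.036 for a 48-nt exon (p = 0.0671). ATP5O, the subunit that joins stalk and head, had 7 events in 5 exons, all within 0.009 of 0. ATP5L, subunit g, had -0.428 for a 62-nt exon of noncoding transcripts, which was not called (p = 0.123 in the authors' table).

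ATP5C1, now ATP5F1C, encodes the gamma subunit, the rotating shaft of the F1 head. The authors' deposited table lists 3 events for it (ENSG00000165629, chromosome 10, + strand), and none was called or had an unadjusted p-value under 0.05 by rMATS. A 35-nt coding exon (chr10:7838084-7838118, hg19) had a difference of 0.011 with p = 0.626 in the authors' table. A 132-nt exon of a noncoding transcript had 0.014 and a 144-nt coding exon (chr10:7841735-7841878) had 0.002, both with a p-value of 1. The 35-nt exon is the second of 9 in its transcript, and skipping it would end the frame after 47 of 297 codons. No exon of 37 nt, the length of the RBFOX-responsive one, is among these events, and that exon was not analysed here. The 35-nt exon is printed to tell it apart from that one.
ATP5C1: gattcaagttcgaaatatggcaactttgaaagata

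**Figure D4:**
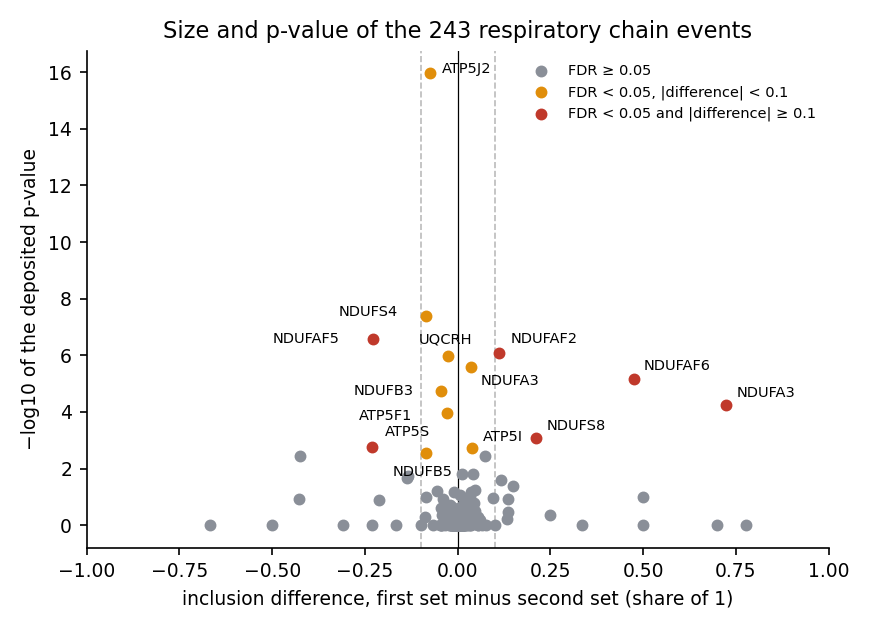
The −log10 of the deposited p-value against the inclusion difference (first set minus second set, share of 1) for all 243 events, with dashed lines at an absolute difference of 0.1. ATP5J2 stands highest at a difference of -0.075, and several grey points with absolute differences above 0.25 lie at or near a p-value of 1.

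What an exon does to the message varied among the exons past the FDR. NDUFAF5, NDUFS4 and UQCRH each had an exon annotated only in nonsense-mediated decay transcripts, and all 3 had higher inclusion in the second set, as did 8 of the 14 events past the FDR. Across the 45 events with this annotation the sign went the other way more often, with 26 positive and 19 negative differences. Over all respiratory chain genes 41 of the 194 matched exons (21.1%) had only this annotation, beside 10.2% of matched exons in the whole table. Fully coding exons made up 51.5% of the matched ones, beside 66.1%. The 45 decay-only events had a median absolute difference of 0.026 with 1 call, and the 125 fully coding events had 0.011 with 3 calls. In the whole table, 142 of 2743 decay-only events and 856 of 18603 fully coding events were called.

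In length the respiratory chain exons were ordinary. Their median was 115 nt (range 12 to 3244), beside 117 nt in the whole table, and 20 (9.66%) were at most 51 nt long, beside 7.2%. The median introns before and after were 2192 and 1906 nt, beside 2152 and 2016 nt. A length divisible by 3, which lets an exon be skipped without a frame shift, was found for 73 exons (35.3%), beside 40.7%. Of the fully coding exons it was 41%, beside 46.2%.

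Junctions that skip the exon were annotated for 132 of the 243 events (54.3%), beside 49.4% in the whole table. All 8 small differences past the FDR had an annotated skipping junction, beside 253 of 304 such events in the whole table. The called events were split evenly, with 3 on either side, while 1177 of the 1619 called events of the whole table had an annotated skipping junction. The called events of NDUFA3, NDUFS8 and ATP5S were those without one. With an annotated skipping junction, the same exons of NDUFA3 and ATP5S had 0.035 and -0.425, and neither met both limits of a call. Of 34 exons with several events, 14 had differences of both signs.

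GCATG within the exon was found in 22 of 194 matched respiratory chain exons (11.3%) and in 2873 of 24785 matched exons of the table (11.6%). The motif was searched on the transcript strand only. Of the 13 matched exons past the FDR, 3 held it (23.1%), beside 184 of 1708 (10.8%) in the whole table. These were NDUFAF5, ATP5S and ATP5J2, and each had higher inclusion in the second set. Their lengths differ, and longer exons hold the motif more often. It occurred in 8.29%, 9.8% and 15.6% of the table's exons within 10 nt of 98, 117 and 172 nt, the lengths of these 3. A match describes the sequence and shows no binding, and the flanking introns, where RBFOX proteins often bind, were not analysed here.

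Processed pseudogenes are common copies of respiratory chain messages. Of the 77 genes, 46 have a pseudogene named after them in the annotation, among them 7 of the 13 with an event past the FDR: NDUFA3, NDUFAF2, NDUFB3, NDUFB5, UQCRH, ATP5F1 and ATP5J2. Whether reads are shared with these copies was not tested.

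Genes of the same pathway with other symbols were called about as often as the whole table. Of 48 listed genes, 34 had events, and 9 of their 124 events were called (7.26%), beside 5.15% of all events and with no test of the difference, with 7 higher in the first set and 2 lower. Each gene was counted in a single group, and COA1 was counted under complex I assembly only. The genes listed under complex I assembly held 5 of the 9 among 40 events. COA1 had 3 of them, in overlapping or neighbouring exons, with differences of 0.138, 0.158 and 0.211 in the authors' deposited table (FDR = 0.0138, 0.000417 and 1.7e-05). ECSIT had 0.102 (FDR = 0.00333) and FOXRED1 0.206 (FDR = 0.0329), so that all 5 events were higher in the first set.

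Complex III assembly and the MICOS complex, which shapes the folds of the inner membrane, held the other 4. BCS1L, which inserts the iron-sulfur protein into complex III, had -0.584 for a 5' UTR exon (FDR = 0.0263 in the authors' deposited table), and the complex III assembly factor UQCC1 had 0.5 (FDR = 0.0238). The MICOS genes APOO and CHCHD6 had 0.192 (FDR = 0.00561) and -0.615 (FDR = 0.00815). None of 17 events of the genes listed under complex IV assembly and translation was called, and none of 22 events of ATP synthase partners. In each group 1 event passed the FDR with an absolute difference under 0.1. By rMATS, 2 and 3 of their events had an unadjusted p-value under 0.05.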

How the data were processed

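The data are 4 stranded, ribosome-depleted RNA-seq libraries, grouped by title into 2 WT and 2 RBFOX2 KO clones. Reads were aligned with STAR 2.7.3a to hg19, per the submitters' processing notes. The file is the authors' skipped-exon output of rMATS from junction reads, per the file headers; its version and annotation are not given in the sources used here. The deposited p-value tests inclusion between 2 sets of libraries, and the deposited FDR equals a Benjamini-Hochberg adjustment of it (largest gap 1.11e-16). The inclusion difference is a deposited score from -1 to 1, read as first minus second set by the rMATS convention, as the header gives no sign. Per the file headers, the authors scaled reads by effective lengths, 97 to 188 nt for inclusion and 94 nt for skipping.

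The 6 columns of values per library match no sample label and were not used, so depth, coverage and spread between clones are not given. The p-values test the difference between the 2 sets in these 4 libraries alone. Positions are 1-based hg19. Exons were matched to GENCODE 29 by gene ID, exon length and both flanking intron lengths, with no conversion of coordinates; printed sequences are GENCODE transcript sequence, and the sequences and positions of the NDUFA3 and ATP5J2 exons are not reported here. Codons count the reading frame from the annotated start. A 20-base stretch counted as shared if an exon of another gene held it.

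Named events were all of ATP5C1, all past FDR 0.05, the 3 genes per complex with the lowest p-values not called, the 5 largest uncalled differences with p below 1 and the gene with most events per complex; outside the symbol rule, called events only. Single events with a p-value of 1, and other events of the named genes, were named after their values were seen. The genes and lists were chosen with earlier results of these data known. Other FDR limits, minimum differences, Bonferroni adjustment, subunits only, 1 event per exon and 1 exon per gene were tried. The code that applies the calling rule was tested on simulated p-values and differences, which does not assess the deposited rMATS values. Computation used Biopython 1.88, matplotlib 3.10.9, scipy 1.17.1, numpy 2.4.6 and pandas 2.3.3 in Python 3.11.15.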

Additional observations from a re-analysis of the deposited data

How the results depend on the processing

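The 6 called respiratory chain events became 4 at an FDR under 0.01 (NDUFA3, NDUFAF2, NDUFAF5 and NDUFAF6), 7 at 0.1 and 5 with a minimum difference of 0.2, which loses NDUFAF2. They became 14 events (13 exons) with no minimum difference, 2 events (2 exons) under Bonferroni adjustment, which keeps NDUFAF2 and NDUFAF5, and 2 with subunits only. By exon, 4 remained called after correction for the events of each exon. The share called stayed below that of the whole table under each of the 5 settings of threshold or adjustment. It was 1.65% against 3.49% at FDR 0.01 and 2.88% against 6.19% at FDR 0.1. With a minimum of 0.2 it was 2.06% against 3.54%, and under Bonferroni 0.823% against 1.5%. With no minimum the shares were close, at 5.76% against 6.12%. Bonferroni adjustment left 472 of the 1619 events called in the whole table. ATP5C1 had no call under any of these 5. With 1 exon per gene, lengths divisible by 3 went from 35.3% to 29.9% and exons of at most 51 nt from 9.66% to 9.09%. For the pathway genes outside the symbol rule, with alternatives chosen after seeing the data, the 9 calls became 5 at an FDR under 0.01, 5 with a minimum difference of 0.2 and 1 under Bonferroni adjustment.

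No paired analysis was possible because no replicate number in the labels can be tied to a column. For the same reason the fit with a replicate block and leaving out each replicate were not run. A minimum of junction reads was not run because the count columns, which match no sample label, were not used in any step. How far depth limits these calls is unknown, since coverage was not used.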
